A study of Mus musculus with 66 samples.

Results

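The clustered protocadherin genes were taken as every gene in the 2 deposited hippocampal expression tables whose symbol is Pcdha, Pcdhb, Pcdhga, Pcdhgb, Pcdhac or Pcdhgc followed by a number. The rule found 58 of the 55421 genes in each table. They are 12 alternate and 2 C-type genes of the alpha cluster, 22 genes of the beta cluster, and 12 gamma A, 7 gamma B and 3 C-type genes of the gamma cluster. Pcdha11 occurs on 2 rows, so the 58 genes carry 57 distinct symbols.

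The study concerns gene expression in seeded tauopathy and its dependence on age. Poly(A) RNA was sequenced from the hippocampus of C57BL/6 mice. All of these mice had been injected with a brain extract, either the Alzheimer's disease one (AD) or the control one (Ctrl), so the Ctrl libraries carry an injection too and no uninjected group was analysed. The 12-month cohort held 37 libraries, of which the AD libraries numbered 6, 6 and 7 at 1, 3 and 5 months post injection (mpi), and the Ctrl libraries 5, 6 and 7. The 3-month cohort held 29 libraries, with 6, 5 and 3 AD libraries at 1, 3 and 5 mpi, and 5, 5 and 5 Ctrl libraries. The labels give the age as 12 or 3 months without saying whether this is the age at injection or at collection. They do not say that each library came from a separate mouse, so each p-value measures no more than how these libraries spread, which may be partly technical.

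Clustered protocadherins are cell surface cadherins that neurons use to tell their own branches from those of other neurons. In the alpha and gamma clusters each variable exon has its own promoter and is spliced to constant exons shared by the whole cluster, whereas a beta gene is a single variable exon with no constant exons. Single neurons choose a few alternate alpha, beta and gamma genes, at random as far as is known, by promoter methylation and by looping that CTCF and cohesin form between a promoter and a distant enhancer. The C-type genes are held to follow other rules and to be expressed in most neurons of a kind, and serotonergic neurons are among those that express Pcdhac2. The gamma C-type gene Pcdhgc4 is needed for the survival of interneurons, and Pcdhgc5 rises late in development.

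In the GRCm38 build with GENCODE vM21 annotation all 58 genes lie on the plus strand of chromosome 18. The alpha genes run from Pcdha1 at position 36930184 to the end of the constant exons at 37187661. The beta genes follow between 37264938 and 37524479, and the gamma genes between 37661793 and 37841873. An alternate gene's own, unshared sequence is mainly its variable exon, since the alpha genes share their last exons with each other, as do the gamma genes. How the authors assigned reads from the shared exons, and whether they used strand, is not given in the sources used here. For that reason levels are compared between genes per kilobase of exon sequence that no other annotated gene shares on the same strand. Antisense transcripts cover part of some genes. Levels are given in RPM, the reads of a gene scaled to the size of its library, as deposited. Gm26672, which covers all of the unshared exon of Pcdhga10, had 1.67 ± 0.471 RPM in the 12-month and 1.90 ± 0.340 RPM in the 3-month cohort (SD, n = 37 and 29). BC037039, antisense to Pcdhgc3, had 0.608 ± 0.213 and 0.699 ± 0.231, and Gm37446, antisense to Pcdhb12, had 0.0191 ± 0.0291 and 0.0108 ± 0.0156. Without strand, reads from such a pair cannot be told apart.

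Library totals lay between 42462638 and 65907005 reads. Markers fitted the labelled tissue: the summed level of 6 dentate granule cell markers was 205 to 530 RPM over all libraries, and none of them was at 0. Choroid plexus markers, which mark tissue outside the hippocampus, ranged far more widely, with a sum over 8 genes of 63.5 to 10266. In the 3-month cohort 4 of the 11 libraries at 1 mpi stood apart by a high level of Inhba, 38.9 to 95.1 against 10.5 to 16.8 in the rest: AD replicates 3 and 6 and Ctrl replicates 1 and 3. Among 12-month AD libraries 2 had an Xist level between those of the other libraries. Results that change without these libraries are given with both values.

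The gamma C-type genes Pcdhgc3 and Pcdhgc5 were the most abundant members in both cohorts. Per unshared kilobase, Pcdhgc3 reached 17.5 RPM in the 12-month and 20.95 in the 3-month cohort, and Pcdhgc5 reached 15.1 and 18.1. The third gamma C-type gene, Pcdhgc4, was far lower, at 2.40 and 2.90. The median per kilobase was 0.994 and 1.17 for the 10 alternate alpha genes other than Pcdha11, 2.08 and 1.78 for the beta genes, 3.93 and 4.36 for the gamma A genes and 2.12 and 2.62 for the gamma B genes. The classes stood in the same order in both cohorts, though the beta and gamma B medians were close to each other in the 12-month cohort.

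Within each class the levels spread widely. In the alpha cluster the C-type gene Pcdhac2 had 8.50 per kilobase in the 12-month and 9.76 in the 3-month cohort, while Pcdhac1 had 0.984 and 1.15, near the median of the alternate genes. Pcdha12 was the highest alternate alpha gene, at 2.06 and 2.21. Pcdha4 was all but undetected, with 0 to 8 reads per library in the 12-month cohort and 0 to 1 in the 3-month cohort. It was the single member that failed the filter on low values. Only 494 bases of its exons are unshared, because the annotated read-through transcript Gm42416, itself at 0 in every library, covers its variable exon.

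Among the beta genes Pcdhb9 was the highest, at 8.81 per kilobase in the 12-month and 6.36 in the 3-month cohort, and Pcdhb1 the lowest, at 0.248 and 0.121. Pcdhga11 led the gamma A genes at 7.65 and 8.61. The lowest gamma A gene was Pcdhga12 at 2.47 in the 12-month cohort and Pcdhga1 at 2.39 in the 3-month cohort; before division by length it was Pcdhga4, at 5.98 and 6.73 RPM. Pcdhgb6 led the gamma B genes at 5.04 and 5.65. Pcdhgb8, annotated as a polymorphic pseudogene, was the lowest at 0.364 and 0.309.

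**Figure D1:**
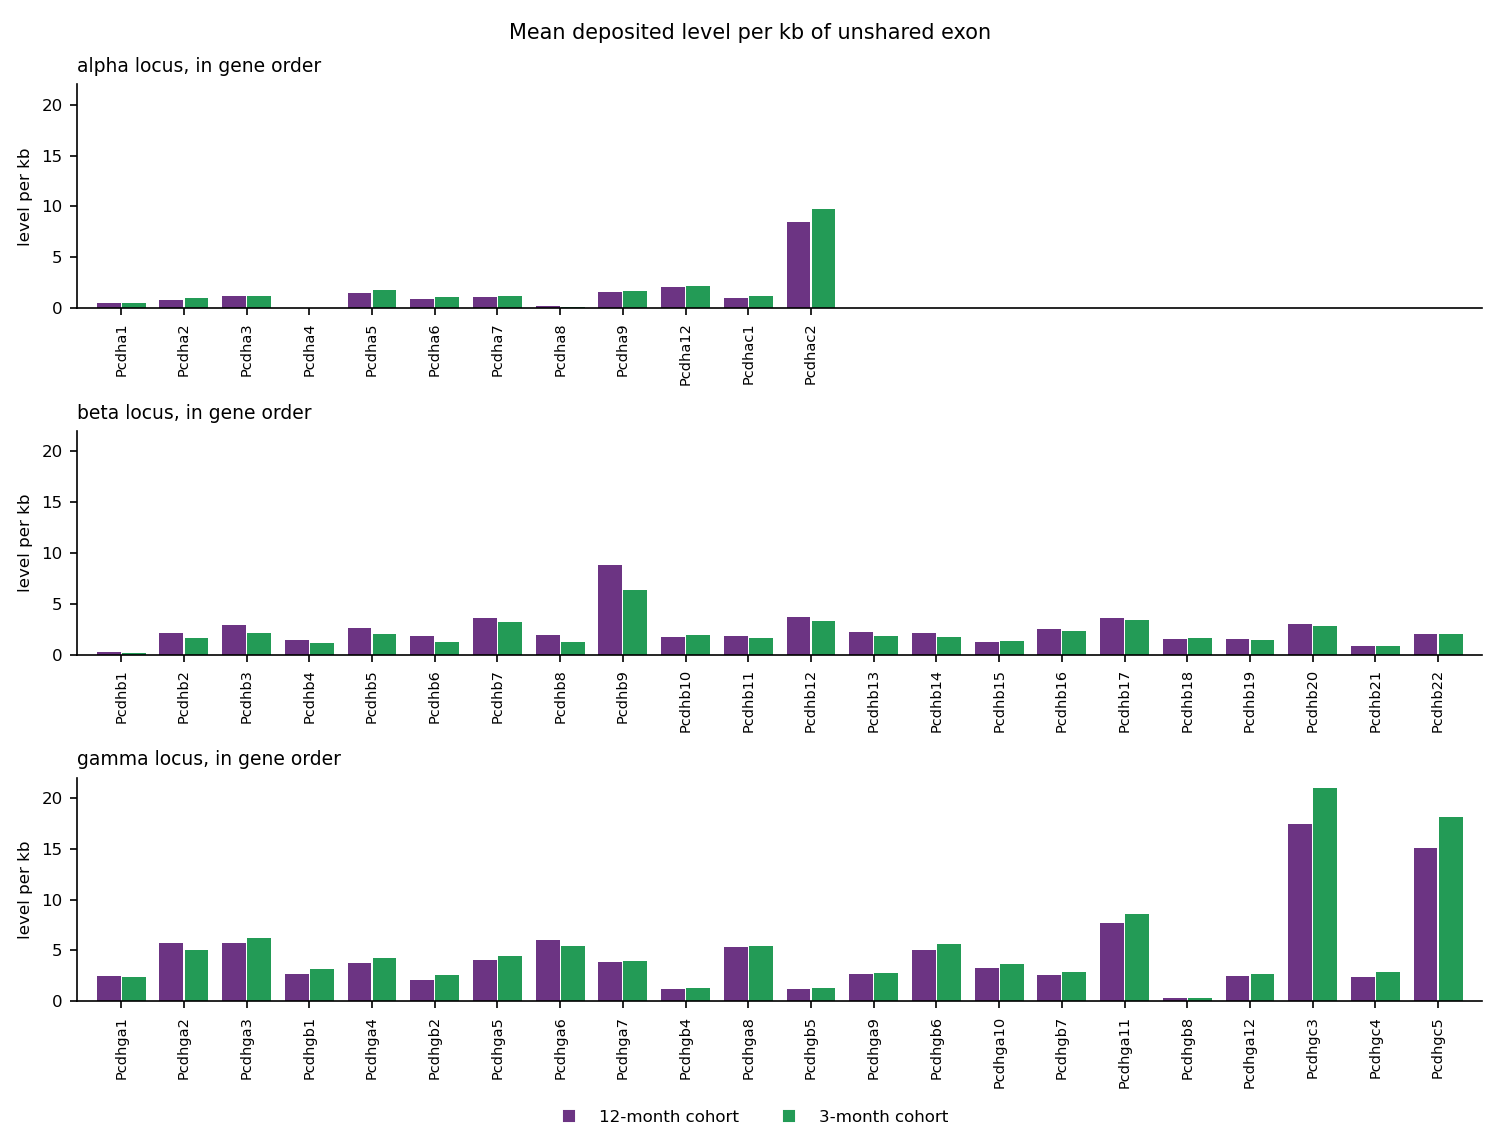
Mean level of each clustered protocadherin gene other than Pcdha11 in RPM per unshared kilobase, in gene order along the chromosome. Bars show the 12-month (n = 37) and the 3-month cohort (n = 29). The gamma C-type genes Pcdhgc3 and Pcdhgc5 stand highest in both cohorts, and Pcdha4 lies at the bottom. The 2 rows of Pcdha11 could not be given a length and are left out.

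Summed over its members, the gamma cluster gave the largest share of clustered protocadherin reads, with 324 ± 21.3 RPM in the 12-month and 363 ± 15.5 in the 3-month cohort (SD, n = 37 and 29, as for the other sums). The beta genes summed to 215 ± 16.4 and 186 ± 15.03. Within the gamma cluster the A genes summed to 144 ± 11.8 and 150 ± 10.4, and the 3 gamma C-type genes alone to 137 ± 9.88 and 164 ± 10.9. The gamma B genes summed to 43.1 ± 3.83 and 49.1 ± 3.64, the alternate alpha genes to 28.5 ± 3.13 and 31.1 ± 2.57, and the alpha C-type genes to 28.3 ± 3.47 and 32.5 ± 2.42. All 58 genes together reached 596 ± 35.8 and 612 ± 28.6. Thus the 5 C-type genes together carried more reads than the 12 gamma A genes, while the sum of the 12 alternate alpha genes differed from that of Pcdhac1 and Pcdhac2 by less than 1 SD in both cohorts.

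Over the 12 groups the sum of all 58 genes moved less, in proportion, than the sum of any class. For all 58 genes the group means at 1, 3 and 5 mpi were 559, 586 and 617 in 12-month AD libraries and 591, 612 and 607 in 12-month Ctrl libraries. The 3-month means were 606, 599 and 652 in AD libraries and 597, 599 and 639 in Ctrl libraries. The beta sum had group means of 203, 206 and 228 in 12-month AD libraries and 204, 219 and 225 in 12-month Ctrl libraries, against 179, 178 and 208 in 3-month AD libraries and 178, 181 and 199 in 3-month Ctrl libraries. In all 4 series the beta sum was highest at 5 mpi. In whole tissue, fewer cells of a kind and less RNA per cell cannot be told apart, here and in every comparison that follows.

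**Figure D2:**
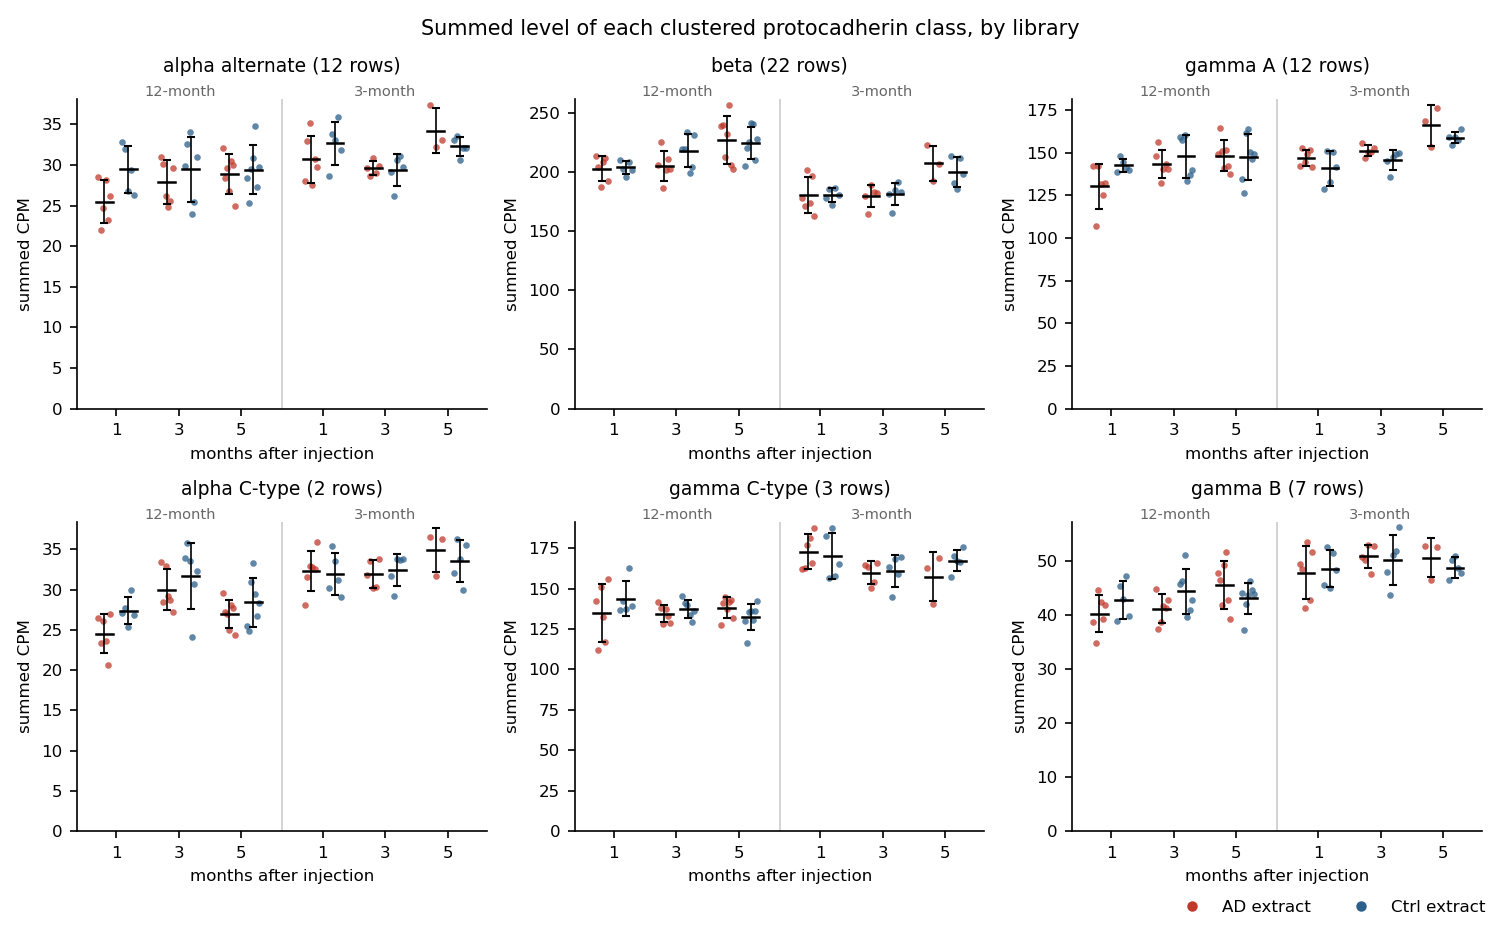
Sum of the levels over the members of each cluster (RPM, both cohorts scaled together), 1 point per library. Lines give the mean and SD of each of the 12 groups. The mean beta sums of the 12-month groups lie above those of the 3-month groups of the same extract and time, and the mean gamma C-type sums lie below them.

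Members differed in how much they varied between libraries of the same group. The median coefficient of variation within groups was 24.4% in the 12-month and 16.4% in the 3-month cohort for the alternate alpha genes, where counting error alone gives 9.38% and 8.84%. It was 14.8% and 12.2% for the beta genes, 13.5% and 11.2% for the gamma A genes and 16.5% and 13.5% for the gamma B genes. The gamma C-type genes were the steadiest class, at 9.02% and 9.44%, still well above a counting error of 1.87% and 1.69%. Pcdha8 varied the most among the 57 genes that passed the filter, at 56.4% and 53.9%, followed by Pcdhb1 at 46.1% and 45.2%.

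Levels of different members were only weakly related across libraries. Over all 1596 pairs of the 57 genes, the median Pearson correlation of the deviations from the group means was 0.125 in the 12-month and 0.0917 in the 3-month cohort, with 72.6% and 64.7% of the pairs positive. Pairs of beta genes had a median of 0.149 and 0.193 over 231 pairs. Pairs of a beta and a gamma C-type gene had medians of −0.0555 and −0.0662 over 66 pairs. These values describe libraries that share their depth and their mix of cells, and correlations this weak are no finding in themselves.

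The first comparison the design implies is AD against Ctrl extract within a cohort. No clustered protocadherin gene passed the test in either cohort, averaged over times or at any single time (limma, Benjamini-Hochberg adjusted p under 0.05 over all genes tested). Few genes of any kind did. In the 12-month cohort 0.00996% of all genes were called for the mean over times, 0.00498% at 1 mpi, 0% at 3 mpi and 0.0548% at 5 mpi, and in the 3-month cohort 0% were called in each of these 4 comparisons. Of the 57 genes tested, those with an unadjusted p under 0.05 numbered, for the mean and then for 1, 3 and 5 mpi, 9, 11, 3 and 3 in the 12-month cohort and 2, 4, 2 and 3 in the 3-month cohort. Among all genes tested the share with such a p was, in the same order, 15.3%, 12.1%, 3.96% and 8.49% in the 12-month and 3.95%, 5.04%, 4.56% and 4.62% in the 3-month cohort, against 15.8% and 3.51% of the members for the mean. edgeR's quasi-likelihood test called no member in any of these comparisons, and DESeq2 called 1, Pcdhga9 in the 12-month cohort at 1 mpi. Fold changes here and below are on the scale log2(level + 1), which understates changes of low genes.

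In the 12-month cohort the log2 fold changes for the mean over times ran from −0.24 to 0.21, with a median of −0.04, and 40 of 57 were negative. Over the 57 genes the 95% intervals ended at −0.42 and 0.38. The smallest p-values belonged to the beta gene Pcdhb12 with −0.23 (SE 0.0683, adjusted p = 0.142), the gamma A gene Pcdhga9 with −0.16 (SE 0.0568, adjusted p = 0.210) and the gamma B gene Pcdhgb4 with −0.24 (SE 0.0915, adjusted p = 0.228). Values in the 3-month cohort ran from −0.09 to 0.16, with a median of 0.02 and 33 of 57 positive, and the intervals ended at −0.22 and 0.30. The smallest p-values there belonged to the gamma A genes Pcdhga10 with 0.13, Pcdhga2 with 0.16 and Pcdhga3 with 0.12, all with an adjusted p of 1.00 in limma.

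Pcdhga9 in the 12-month cohort at 1 mpi was the member with the smallest p in a single group pair. Its levels there were 6.63, 7.05, 7.05, 7.85, 7.85 and 8.61 RPM in AD libraries and 9.16, 10.1, 10.2, 10.6 and 10.9 in Ctrl libraries. The groups did not overlap at this time, yet the log2 fold change of −0.40 (SE 0.104) did not pass over all genes (limma, adjusted p = 0.174). At 3 mpi the AD libraries held 7.56 to 10.9 and the Ctrl libraries 7.27 to 11.1. At 5 mpi the AD libraries held 7.71 to 11.5 and the Ctrl libraries 7.57 to 11.2, so the groups overlapped over nearly their whole ranges. Pcdhb12 at 1 mpi had 7.99, 8.23, 8.89, 8.92, 10.2 and 13.6 in AD libraries and 11.5, 12.0, 12.0, 12.2 and 13.5 in Ctrl libraries, with 1 AD library above all Ctrl libraries (log2 fold change −0.33, limma adjusted p = 0.298). The C-type gene Pcdhgc5 had a log2 fold change of −0.21 at that time (limma adjusted p = 0.260). Across the 12-month cohort all 8 choroid plexus markers had higher means in AD libraries, with a median log2 fold change of 0.81 and none passing the test. All 6 oligodendrocyte and all 6 microglial markers had positive fold changes too (medians 0.18 and 0.14) and all 8 pan-neuronal markers negative ones (median −0.08), again with none passing. The part of these markers in the members' values was not tested.

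The other times gave no stronger values. In the 12-month cohort at 3 mpi the smallest p-values belonged to 1 row of Pcdha11 with −0.41, Pcdhb1 with −0.33 and Pcdhb12 with −0.25 (limma adjusted p = 0.995 each). At 5 mpi they belonged to Pcdhgb6 with 0.19, Pcdhgb7 with 0.23 and Pcdhgc3 with 0.14 (limma adjusted p = 0.499, 0.504 and 0.536). In the 3-month cohort the 3 leading genes were Pcdhga9 with 0.24, the same row of Pcdha11 with −0.28 and Pcdhgb8 with −0.17 at 1 mpi, then Pcdhga10, Pcdhga7 and Pcdhga3 with 0.19, 0.19 and 0.18 at 3 mpi, and Pcdhb11, Pcdhga2 and Pcdha12 with 0.38, 0.38 and 0.21 at 5 mpi (limma adjusted p at least 0.916). Pcdhga9 thus had a negative fold change at 1 mpi in the 12-month and a positive one in the 3-month cohort.

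**Figure D3:**
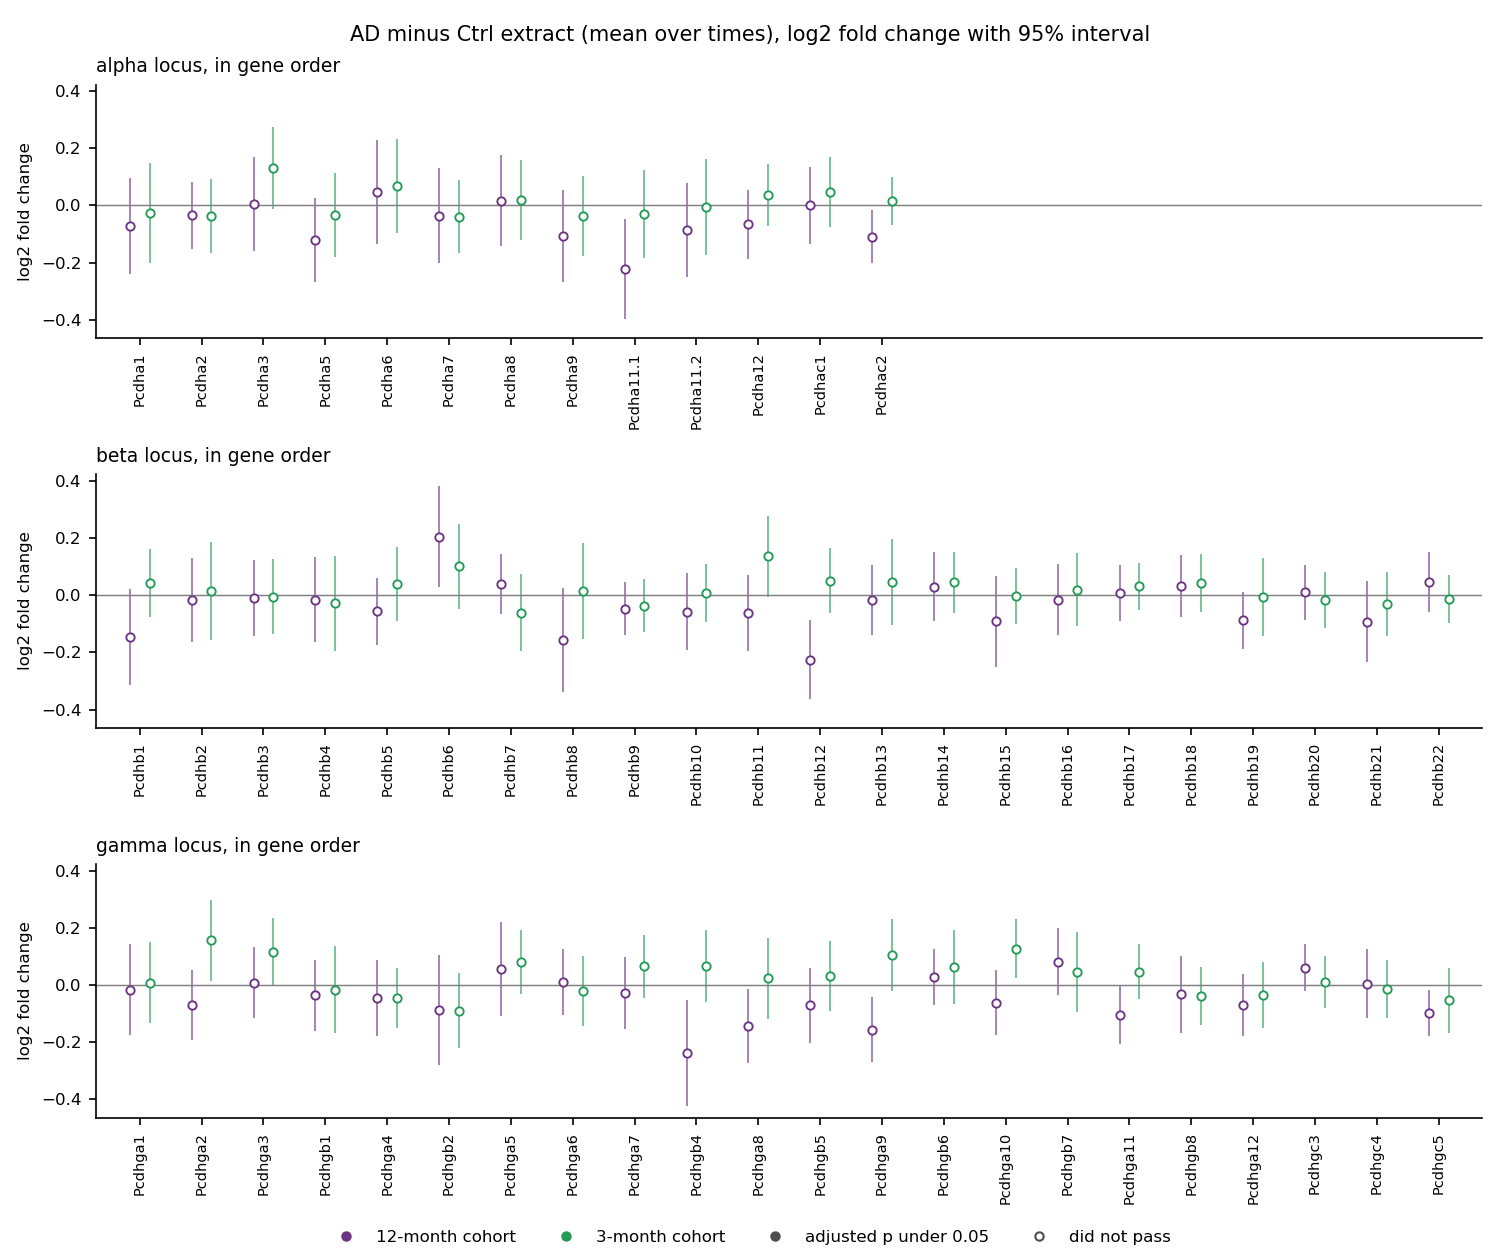
Log2 fold change of AD over Ctrl libraries for the 57 genes tested, mean over times, with 95% intervals, in the 12-month and the 3-month cohort. No gene passes the test; the values run from −0.24 to 0.21 and from −0.09 to 0.16.

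Whether the AD effect itself differed was tested as a contrast of contrasts, and no member passed. The difference of the AD effect between 5 and 1 mpi was called for 0.00498% of all genes in the 12-month and 0% in the 3-month cohort. The leading member was Pcdhga9, with 0.41 in the 12-month cohort (limma adjusted p = 0.651), followed by Pcdhgb1 with 0.34 and Pcdhgc5 with 0.21. In the 3-month cohort Pcdhb10 had 0.31, Pcdhga12 −0.32 and Pcdhgc3 −0.21 (limma adjusted p = 0.984 each). The difference of the AD effect between the 12-month and the 3-month cohort was called for 0% of all genes. The leading members were Pcdhga9 with −0.26, Pcdhb12 with −0.28 and Pcdhgb4 with −0.30 (limma adjusted p = 0.866 each). Unadjusted p-values under 0.05 numbered 3, 2 and 7 of 57 in these 3 contrasts, against 5.83%, 4.07% and 5.52% of all genes, and neither edgeR nor DESeq2 called a member in any of them.

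The second comparison is between the ends of the time series, 5 against 1 mpi, within the libraries of 1 extract. Within the 3-month cohort a few members rose and none fell. Among AD libraries 4 of 57 members were higher at 5 mpi, against 5.69% of all genes called, 1.99% higher and 3.7% lower. Among Ctrl libraries 5 of 57 were higher, against 9.19% of all genes called, 5.13% higher and 4.06% lower. The share of members called higher was above the background in AD libraries, where the count ran from 0 to 7 under the alternatives tried, and near it in Ctrl libraries. The beta gene Pcdhb9 and the gamma A gene Pcdhga2 rose in both, which is 50% of the AD calls and 40% of the Ctrl calls. For all genes called higher the overlap was 225, or 56.5% of the AD calls and 21.95% of the Ctrl calls.

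Pcdhga2 (chromosome 18, 37668953 to 37841870, the second gene of the gamma cluster) showed the largest rise. In 3-month AD libraries its levels were 9.39, 9.85, 10.1, 10.3, 11.5 and 13.6 RPM at 1 mpi, then 10.5, 12.2, 12.8, 12.9 and 16.01 at 3 mpi, and finally 15.8, 22.1 and 22.1 at 5 mpi. The 3-month Ctrl libraries had 8.63, 8.68, 9.05, 10.8 and 11.3 at 1 mpi, then 11.2, 12.1, 13.2, 14.9 and 15.5 at 3 mpi, and 13.1, 13.2, 15.9, 15.9 and 16.9 at 5 mpi. Within each extract every library at 5 mpi was above every library at 1 mpi, and the libraries at 3 mpi overlapped with both times. The log2 fold change of 5 over 1 mpi was 0.82 in AD libraries (SE 0.128, limma adjusted p = 7.32e-04) and 0.58 in Ctrl libraries (SE 0.115, limma adjusted p = 0.00342). The same contrast in the 12-month cohort gave 0.34 in AD libraries (limma adjusted p = 0.102) and 0.12 in Ctrl libraries (limma adjusted p = 0.926).

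Pcdhb9 (chromosome 18, 37400855 to 37403909), the most abundant beta gene, rose too. In 3-month AD libraries its levels were 15.3, 16.1, 16.2, 17.0, 19.0 and 21.3 at 1 mpi, then 17.0, 18.3, 19.0, 19.0 and 19.4 at 3 mpi, and 21.1, 22.2 and 22.8 at 5 mpi. The 3-month Ctrl libraries had 15.6, 15.9, 16.8, 16.9 and 18.3 at 1 mpi, then 16.8, 18.5, 20.6, 21.3 and 22.2 at 3 mpi, and 21.4, 22.8, 23.2, 24.1 and 25.02 at 5 mpi. The Ctrl groups at 5 and 1 mpi did not overlap, while 1 AD library at 1 mpi exceeded the lowest at 5 mpi. The log2 fold change was 0.33 in AD libraries (SE 0.0842, limma adjusted p = 0.0226) and 0.46 in Ctrl libraries (SE 0.0753, limma adjusted p = 0.00106). In 12-month libraries it was 0.17 in AD libraries (limma adjusted p = 0.300) and 0.04 in Ctrl libraries (limma adjusted p = 0.989).

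The other members that rose did so in the libraries of 1 extract, and whether they differed between extracts was tested above, with no member passing. Pcdhga12, the last gamma A gene, had 12.3, 13.4, 13.8, 15.8 and 15.9 at 5 mpi against 8.32, 9.93, 10.7, 11.4 and 11.7 at 1 mpi in 3-month Ctrl libraries, with no overlap (log2 fold change 0.42, SE 0.0943, limma adjusted p = 0.00756). Pcdhb3 had 7.72, 8.33, 10.2, 10.3 and 11.1 against 6.51, 6.81, 7.15, 7.15 and 8.22, with overlap (0.36, SE 0.106, limma adjusted p = 0.0327). The C-type gene Pcdhac1 had 2.59, 2.98, 3.35, 3.51 and 3.96 against 1.94, 1.94, 2.37, 2.53 and 3.17, also with overlap (0.34, SE 0.1005, limma adjusted p = 0.0336). Among AD libraries Pcdhga7 had 12.9, 14.2 and 14.8 at 5 mpi against 9.81, 10.1, 10.7, 11.0, 11.9 and 11.9 at 1 mpi, and Pcdhga4 had 7.14, 7.62 and 7.95 against 5.12, 5.47, 5.55, 5.75, 6.24 and 6.92. Neither overlapped, and their log2 fold changes were both 0.33 (SE 0.101 and 0.0950, limma adjusted p = 0.0493 and 0.0385). The AD group at 5 mpi held only 3 libraries, and these last calls lay just under the threshold. The call of Pcdhga7 was lost under 8 of 16 alternatives and in 23 of the 29 fits that left out 1 library, and that of Pcdhga4 under 8 and in 6. Among the calls described before them, Pcdhb3 in Ctrl libraries was lost under 6 of 16 alternatives and in 6 of 29 fits. Pcdhb9 in AD libraries was lost under 5 and in 3, and Pcdhga2 in AD libraries under 2 and in 0. The call of Pcdhac1 in Ctrl libraries was not followed through these fits.

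Other material moved with time in the same libraries. Choroid plexus markers summed to 63.5 to 822 at 5 mpi and 208 to 7918 at 1 mpi in 3-month AD libraries, and to 96.1 to 4387 and 2387 to 6098 in 3-month Ctrl libraries. All 8 fell in AD libraries (median log2 fold change −2.86), and 1 of 8 passed in Ctrl libraries (median −1.53). Microglial markers summed to 336 to 359 at 5 mpi and 383 to 518 at 1 mpi in AD libraries, and to 338 to 362 and 382 to 418 in Ctrl libraries, with no overlap; 3 of 6 fell in AD and 1 of 6 in Ctrl libraries. Of 6 oligodendrocyte markers 2 fell in each extract (medians −0.41 and −0.27). The part of microglial and oligodendrocyte markers in the members' values was not tested. With the choroid plexus level as a covariate 1 member was called in AD and 5 in Ctrl libraries. Pcdhb3 in Ctrl libraries lost its call with that covariate, so the 5 Ctrl calls were not the same 5 genes. With the mean of Gm42418 and Lars2, transcripts that track ribosomal RNA carry-over and whose levels fell in AD libraries (median −1.21, both called), 0 members were called in AD and 4 in Ctrl libraries. Without the 4 libraries of high Inhba 4 members were called in AD and 3 in Ctrl libraries. Pcdhga4 in AD and Pcdhb3 in Ctrl libraries lost their calls there, so the 4 AD calls were not the same 4 genes. Leaving out 1 library at a time gave 1 to 5 calls in AD libraries, with 1 or 2 without replicate 4, 5 or 6 at 1 mpi or replicate 1 or 3 at 5 mpi. It gave 3 to 6 calls in Ctrl libraries, with 3 without replicate 1 or 3 at 1 mpi or replicate 5 at 5 mpi.

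In the 12-month cohort no member passed for 5 against 1 mpi, where 0.762% of all genes were called among AD libraries, 0.602% being lower, and 0.0249% among Ctrl libraries, 0.0199% lower. In AD libraries 56 of 57 fold changes were positive, with a median of 0.16, and 13, or 22.8%, had an unadjusted p under 0.05. Of all genes 50.4% were positive and 14% had such a p. The leading genes were Pcdhga2 with 0.34 (limma adjusted p = 0.102), Pcdhgc5 with 0.20 (limma adjusted p = 0.141) and Pcdhga9 with 0.28 (limma adjusted p = 0.148), and all 8 choroid plexus markers had lower means at 5 mpi (median −1.41, none called). In Ctrl libraries 35 of 57 were positive and 8 had an unadjusted p under 0.05, against 48.5% and 6.81% of all genes. Pcdhb2 led there, with 6.24, 6.25, 6.42, 7.35, 7.46, 7.55 and 9.22 at 5 mpi against 3.60, 3.96, 4.26, 5.22 and 6.30 at 1 mpi. Only the highest library at 1 mpi overlapped the range at 5 mpi, and the log2 fold change was 0.55 (SE 0.128, limma adjusted p = 0.0983). Pcdhgc3 followed with −0.25 and Pcdha1 with 0.39 (limma adjusted p = 0.262 and 0.526). edgeR called no member in either extract, and DESeq2 called 0 among AD and 1 among Ctrl libraries.

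The third comparison, of the 12-month with the 3-month cohort over all times, gave most of the calls, and they ran in opposite directions in different clusters. Up to 11 of the 22 beta genes were higher in the 12-month cohort, and all 5 C-type and up to 5 of the 7 gamma B genes were lower. Among AD libraries 8 of 57 members were higher and 19 lower, and among Ctrl libraries 12 were higher and 11 lower (limma on both tables scaled together). Of all genes, 20.2% were called among AD libraries, 10.2% higher and 10% lower, and 20.7% among Ctrl libraries, 10% higher and 10.7% lower. The median log2 fold change of the members was −0.13 in AD and −0.03 in Ctrl libraries, against −0.005 and −0.009 over all genes. Over 3 and 5 mpi only, 7 were higher and 8 lower among AD libraries, and with upper quartile scaling 12 were higher and 7 lower among Ctrl libraries. Age here cannot be told apart from the deposited table, since each cohort has a table of its own.

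All 8 members that were higher in 12-month AD libraries, and 11 of the 12 in Ctrl libraries, were beta genes. The exception was Pcdhga2 (named after its value was seen), with 0.23 in Ctrl libraries (limma adjusted p = 0.00633) and 0.01 in AD libraries (limma adjusted p = 0.931). Calls shared by both extracts, which have no library in common, numbered 7 higher, all of them beta genes, or 87.5% of the AD and 58.3% of the Ctrl calls. They numbered 10 lower, or 52.6% of the AD and 90.9% of the Ctrl calls. No member was called in opposite directions. Over all genes the shared calls were 1328 higher (61.3% and 62.3%) and 1171 lower (54.8% and 51.2%).

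Pcdhb9 again stood out. On the joint scale its 12-month AD libraries had a lowest, median and highest level of 21.9, 26.1 and 35.6 RPM, against 15.4, 19.1 and 22.9 in 3-month AD libraries. In Ctrl libraries the values were 22.6, 27.5 and 31.6 at 12 months, against 15.9, 20.6 and 25.2 at 3 months. Every 12-month library, 19 of 19 AD and 18 of 18 Ctrl, lay above the 3-month median of its extract, and the ranges overlapped at their ends. The means were 26.4 ± 3.08 and 18.9 ± 2.35 in AD libraries (SD, n = 19 and 14), and 27.2 ± 2.52 and 20.1 ± 3.12 in Ctrl libraries (SD, n = 18 and 15). The log2 fold change was 0.42 in AD libraries (SE 0.0476, limma adjusted p = 1.22e-09) and 0.43 in Ctrl libraries (SE 0.0462, limma adjusted p = 3.90e-10).

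The fold change of Pcdhb9 was positive at each time. The 12-month over 3-month log2 fold change at 1, 3 and 5 mpi was 0.47, 0.48 and 0.32 in AD libraries and 0.62, 0.47 and 0.21 in Ctrl libraries. These contrasts use the same 3-month libraries as the comparison of 5 with 1 mpi, in which Pcdhb9 rose by 0.33 and 0.46, so the 2 sets of values are not independent. For Pcdhga2, which rose with time in the 3-month cohort, the cohort difference was 0.15, 0.22 and −0.33 at 1, 3 and 5 mpi in AD libraries and 0.50, 0.15 and 0.05 in Ctrl libraries.

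Further beta genes rose too. Pcdhb8 had a lowest, median and highest level of 3.34, 6.15 and 8.80 in 12-month against 2.87, 3.83 and 5.92 in 3-month AD libraries, and of 4.07, 6.98 and 11.9 against 3.03, 4.11 and 5.85 in Ctrl libraries. Its log2 fold change was 0.40 (SE 0.0918, limma adjusted p = 9.14e-04) in AD and 0.57 (SE 0.0892, limma adjusted p = 3.44e-06) in Ctrl libraries, with overlapping groups. At 1, 3 and 5 mpi it was 0.43, 0.34 and 0.43 in AD and 0.45, 0.64 and 0.61 in Ctrl libraries. Pcdhb6 rose by 0.45 in AD (limma adjusted p = 9.22e-05) and 0.35 in Ctrl libraries (limma adjusted p = 0.00197), and Pcdhb3 by 0.37 in both (limma adjusted p = 5.61e-05 and 3.50e-05). Pcdhb1, the lowest beta gene, had 0.722 ± 0.279 in 12-month against 0.301 ± 0.171 in 3-month Ctrl libraries (SD, n = 18 and 15), a log2 fold change of 0.39 (limma adjusted p = 1.39e-04). In AD libraries it had 0.20 (limma adjusted p = 0.0638).

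The beta calls were not spread evenly over the cluster. Of Pcdhb1 to Pcdhb14, the first 14 genes in order, 8 were higher and 1 lower in 12-month AD libraries and 11 were higher in 12-month Ctrl libraries. The median log2 fold change of these 14 was 0.23 in AD and 0.30 in Ctrl libraries. Of the 8 genes Pcdhb15 to Pcdhb22, none was called in either extract, with values of −0.17 to 0.06 in AD and −0.09 to 0.10 in Ctrl libraries. This division was drawn after the values were seen and has no test. The 1 lower gene, named for the same reason, was Pcdhb10, with −0.22 in AD (limma adjusted p = 0.00916) and −0.15 in Ctrl libraries (limma adjusted p = 0.0632).

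**Figure D4:**
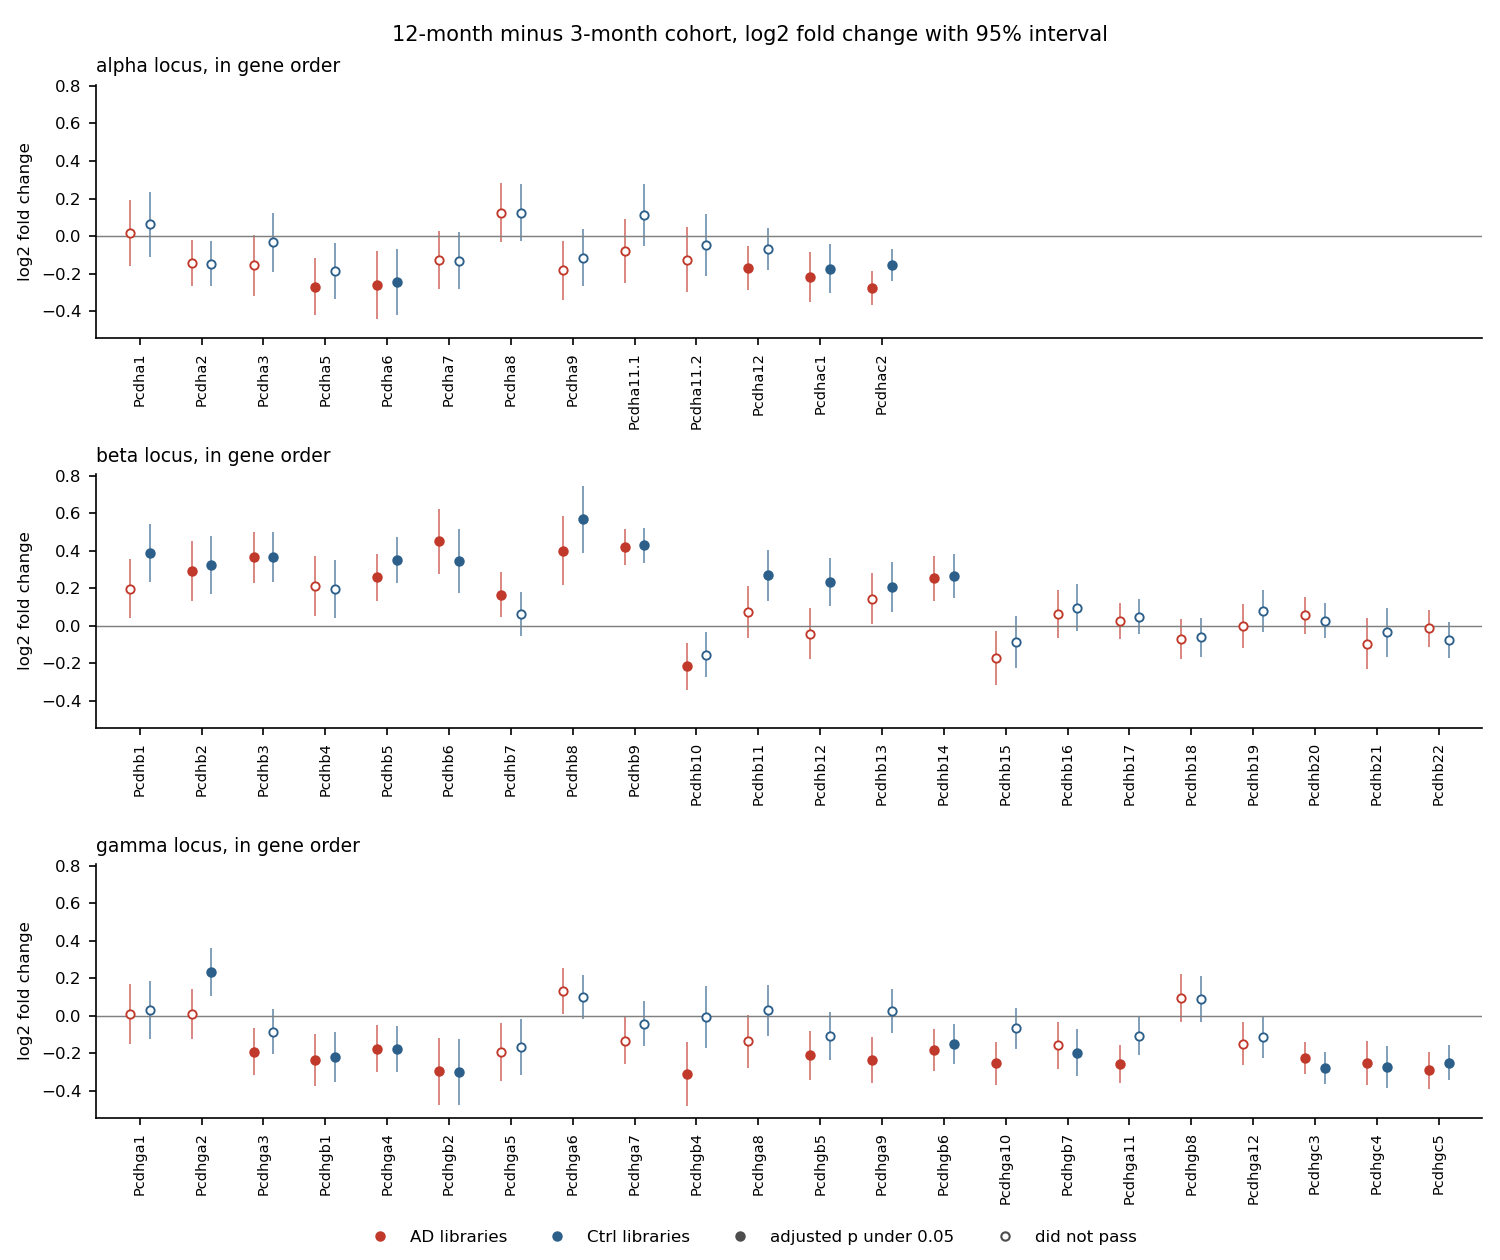
Log2 fold change of the 12-month over the 3-month cohort for the 57 genes tested, in gene order along the chromosome, with 95% intervals, in AD and in Ctrl libraries; filled points pass the test. Filled points above 0 lie among the first 14 beta genes, apart from Pcdhga2 in Ctrl libraries, and all 5 C-type genes lie below 0 in both extracts. Both rows of Pcdha11 are shown, in arbitrary order.

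All 5 C-type genes were lower in the 12-month cohort in both extracts. Pcdhgc3 (chromosome 18, 37806364 to 37841873) had a lowest, median and highest level of 50.7, 59.6 and 78.0 in 12-month against 63.1, 70.6 and 88.3 in 3-month AD libraries, and of 47.6, 56.6 and 68.2 against 57.6, 70.2 and 81.5 in Ctrl libraries. Its log2 fold change was −0.23 in AD (SE 0.0431, limma adjusted p = 8.14e-05) and −0.28 in Ctrl libraries (SE 0.0419, limma adjusted p = 1.45e-06). Pcdhgc5 (37819513 to 37841873) had 54.0, 68.5 and 77.9 in 12-month against 67.2, 83.1 and 102 in 3-month AD libraries, and 61.1, 72.4 and 86.1 against 76.9, 85.4 and 111 in Ctrl libraries. The groups overlapped for both genes, and the log2 fold change of Pcdhgc5 was −0.29 in AD (SE 0.0490, limma adjusted p = 1.13e-05) and −0.25 in Ctrl libraries (limma adjusted p = 9.14e-05). At 1, 3 and 5 mpi Pcdhgc3 had −0.26, −0.25 and −0.17 in AD and −0.19, −0.22 and −0.42 in Ctrl libraries. Pcdhgc5 had −0.44, −0.25 and −0.18 in AD and −0.27, −0.22 and −0.26 in Ctrl libraries, so both genes were negative at every time.

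Pcdhgc4 had 8.37 ± 1.39 in 12-month against 10.1 ± 0.756 in 3-month AD libraries (SD, n = 19 and 14) and 8.25 ± 0.767 against 10.2 ± 1.07 in Ctrl libraries (SD, n = 18 and 15). The log2 fold change was −0.25 and −0.27 (limma adjusted p = 9.18e-04 and 2.58e-04). Pcdhac2 had 24.7 ± 2.93 in 12-month against 29.7 ± 2.32 in 3-month AD libraries, and 26.7 ± 3.27 against 29.7 ± 2.13 in Ctrl libraries, with the same n. Its log2 fold change was −0.28 in AD (limma adjusted p = 5.72e-06) and −0.15 in Ctrl libraries (limma adjusted p = 0.00798). At 1, 3 and 5 mpi it was −0.40, −0.07 and −0.37 in AD and −0.22, −0.02 and −0.22 in Ctrl libraries, with the smallest values at 3 mpi in both extracts. Pcdhac1 had −0.22 in AD and −0.17 in Ctrl libraries (limma adjusted p = 0.0133 and 0.0468). The Pcdhac1 calls were not followed singly through the alternatives or the left-out libraries. The same holds for Pcdhac2 in Ctrl libraries and for Pcdhgc3 and Pcdhgc4 in AD libraries.

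Of the 7 gamma B genes, 5 were lower in 12-month AD and 4 in 12-month Ctrl libraries, and none was higher. Pcdhgb2 had −0.30 in both extracts (limma adjusted p = 0.0130 in AD and 0.00965 in Ctrl libraries). Over 3 and 5 mpi only it had −0.31 and −0.26 and no longer passed (limma adjusted p = 0.0733 and 0.0750). Pcdhgb4 had −0.31 in AD (limma adjusted p = 0.00648) and −0.01 in Ctrl libraries (limma adjusted p = 0.968), a difference that did not pass when tested. Of the 12 gamma A genes, 5 were lower in AD libraries, and in Ctrl libraries 1 was lower, Pcdhga4, and 1 higher, Pcdhga2. Of the 11 alternate alpha genes tested, 3 were lower in AD libraries and 1, Pcdha6, in Ctrl libraries; Pcdha6 and Pcdhga4 are named for their count, after their values were seen.

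**Figure D5:**
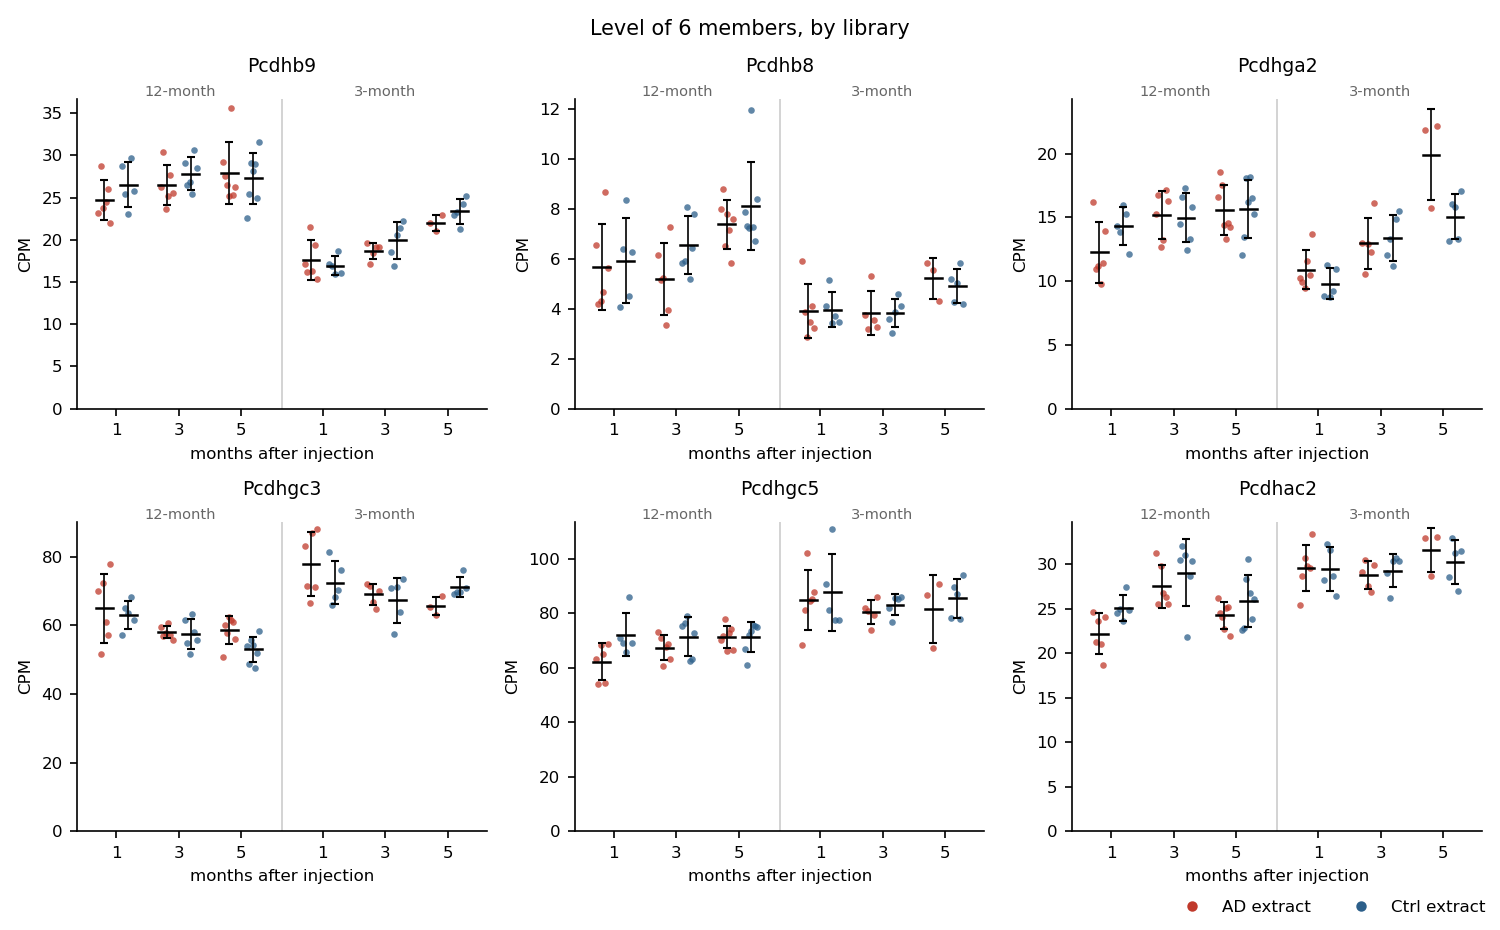
Level in each library (RPM, joint scale) of members the results turn on, by group, with the group mean and SD. Pcdhb9 lies higher and Pcdhgc3 and Pcdhgc5 lie lower in the 12-month groups, and Pcdhga2 climbs from 1 to 5 mpi in the 3-month cohort.

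The beta genes held a larger part of the clustered protocadherin reads in the 12-month cohort, and the gamma C-type genes a smaller one, while the totals lay close together. The sum over all 58 genes on the joint scale was 587 ± 37.7 in 12-month against 617 ± 28.7 in 3-month AD libraries (SD, n = 19 and 14), and 602 ± 32.7 against 615 ± 26.6 in Ctrl libraries (SD, n = 18 and 15). Beta genes made up 36.2 ± 2.12% of these reads in 12-month against 30.1 ± 1.82% in 3-month AD libraries, and 36.0 ± 1.58% against 30.4 ± 1.197% in Ctrl libraries, with the same n. The share ran from 33.7% to 40.0% in 12-month and from 28.5% to 33.3% in 3-month Ctrl libraries, so the Ctrl groups did not overlap. In AD libraries they met at the edge, with 32.5% to 40.6% and 26.7% to 32.7%. The gamma C-type share was 23.2 ± 1.58% against 26.7 ± 2.01% in AD and 22.8 ± 1.39% against 27.0 ± 1.78% in Ctrl libraries, while the gamma A share stayed between 24.0% and 24.7% in all 4 sets. These sums were given no test.

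Markers of several cell types also differed between cohorts. All 6 microglial markers were higher in 12-month AD libraries (median log2 fold change 0.25) and 4 of 6 in Ctrl libraries (median 0.14). The 8 choroid plexus markers had a median of −0.07 in AD libraries, with none called, and all 8 were lower in 12-month Ctrl libraries (median −1.37). Pan-neuronal markers had medians of −0.02 in AD, with 2 of 8 lower, and 0.02 in Ctrl libraries, with 2 of 8 higher. Summed excitatory neuron markers (joint scale) had medians of 4885 in 12-month against 5413 in 3-month AD libraries. In Ctrl libraries they had 5225 against 5462. GABAergic interneuron sums were 948 against 898 in AD and 927 against 926 in Ctrl libraries. Astrocyte sums were 5908 against 6212 and 5869 against 5893, and oligodendrocyte sums 4443 against 4574 and 3994 against 4519. Ranges overlapped in each, and the part of these lists in the members' values was not tested. With the choroid plexus level as a covariate 29 members were called in AD and 22 in Ctrl libraries. The log2 fold change of Xist was 1.67 in AD and 2.99 in Ctrl libraries without passing the test. Summed over 5 sex-linked genes, Xist with Y-linked Ddx3y, Eif2s3y, Kdm5d and Uty, the median was 652 in 12-month against 194 in 3-month AD libraries. In Ctrl libraries it was 474 against 197, and the ranges overlapped in both extracts (joint scale). With Xist as a covariate 27 members were called in AD and 22 in Ctrl libraries. The sex-linked sum adds Xist to Y-linked genes, so it does not measure the mix of sexes. Whether the cohorts differ in that mix was not tested.

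Genes known to control clustered protocadherin promoters moved in both directions between cohorts. Of 22 such genes, 5 were higher and 5 lower in 12-month AD libraries, and 4 were higher and 6 lower in 12-month Ctrl libraries. This is 45.5% in each extract, against 20.2% and 20.7% of all genes called in either direction. Among those lower were genes of DNA demethylation, Tet3 with −0.26 in AD and −0.29 in Ctrl libraries and Tet1 with −0.21 and −0.20 (largest limma adjusted p = 0.00713). The maintenance methyltransferase Dnmt1 had −0.17 in AD libraries (limma adjusted p = 1.62e-04). The cohesin subunit Stag2 was higher, with 0.17 in AD (limma adjusted p = 9.45e-06) and 0.13 in Ctrl libraries (limma adjusted p = 4.85e-04). Of 19 genes for partners of the proteins, 4 were higher and 4 lower in AD libraries and 3 and 3 in Ctrl libraries, or 42.1% and 31.6%, led by Marcks at 0.18 and 0.12, a membrane-bound substrate of protein kinase C, and the inhibitory synapse adhesion gene Nlgn2 at −0.16 and −0.13 (largest limma adjusted p = 0.0140).

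The non-clustered protocadherins, which lie outside the 3 clusters, gave 1 call in AD and 4 in Ctrl libraries, a difference that was not tested. Of 12 genes, 0 were higher and 1 lower in 12-month AD libraries, Pcdh1 at −0.21 (limma adjusted p = 8.57e-04), and 1 was higher and 3 lower in Ctrl libraries, with Pcdh20 at 0.18 and Pcdh8 at −0.37 (limma adjusted p = 0.0227 and 0.0172). The shares called were 8.33% in AD and 33.3% in Ctrl libraries, against the same 20.2% and 20.7% of all genes. Between 5 and 1 mpi in the 3-month cohort Pcdh12, an endothelial protocadherin, fell by 0.81 in AD and by 0.62 in Ctrl libraries (limma adjusted p = 0.00328 and 0.00566). Of the promoter regulators only Wiz, which binds with CTCF, was called in both extracts, at 0.22 and 0.25 (limma adjusted p = 0.0352 and 0.00639). Nipbl, the cohesin loader, had −0.24 in Ctrl libraries (limma adjusted p = 0.0110). Of all genes 5.69% were called in AD and 9.19% in Ctrl libraries in that comparison of times. The calls of these single genes are therefore not read as a result about their lists. In AD against Ctrl libraries no gene of these 3 lists passed in either cohort or at any time (limma). For the mean over times in the 12-month cohort 3 of the 22 promoter regulators, 8 of the 19 partners and 3 of the 12 non-clustered protocadherins had an unadjusted p under 0.05, or 13.6%, 42.1% and 25% against 15.3% of all genes. In the 3-month cohort 0 of these genes had such a p, against 3.95% of all genes.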

How the data were processed

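Poly(A) RNA libraries from mouse hippocampus were processed by the authors with STAR, Picard and edgeR on GRCm38, per the submitters' processing notes; tool versions, annotation and counting rule: not given in the sources used here. Each cohort has 1 deposited table, which holds a signal: reads divided by 1 factor per library, close to RPM. Dividing each library's deposited values by its smallest step recovered whole reads for 100% of values within 0.01 reads, the largest deviation being 1.41e-04. No column was left unmapped.

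Each cohort was tested with limma 3.58.1 (R 4.3.3), with a trend on mean level, on log2(deposited level + 1), 1 mean per group, after edgeR's filter on low values (20084 genes in the 12-month and 19976 in the 3-month cohort). The cohorts were compared on the recovered reads scaled together with TMM in edgeR 4.0.16 and fitted as log2(CPM + 1) over 21297 genes. P-values were adjusted over all genes tested by the Benjamini-Hochberg method, with calls at 0.05. The scripts were tested on simulated data. DESeq2 1.42.0, edgeR's quasi-likelihood test, other scalings, filters and pseudocounts, covariates and left-out libraries were the alternatives.

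Over 155 pairs of libraries within groups the smallest chi-square per degree of freedom was 5.39, so no library was a copy of another in its group. Libraries of different groups were not compared in this way. Of 31 pairs of AD and Ctrl libraries with the same replicate number, 12 had deviations correlated above 0.1. Over all 31 pairs the correlation ran from −0.403 to 0.642. The numbers were not taken to pair the samples, though groups this small cannot exclude a pairing.

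The members and gene lists were chosen with earlier results of these data known. Named genes are the 4 highest and 4 lowest called members of a comparison, or else the 3 with the smallest p, together with C-type genes, the highest and lowest member of a cluster and members that fail the filter. Gene positions are from GENCODE vM21. No sequences are given here.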

Additional observations from a re-analysis of the deposited data

Results flagged for a closer look

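In groups of 4 to 10 libraries, 12 of the 231 sets of values examined held 1 library far from the others, where chance would flag about 1 set in 20. The sets were the 6 cluster sums and 15 members in each such group, and the flagged values are in RPM. In the 12-month Ctrl group at 1 mpi, replicate 4 had a gamma C-type sum of 164 and a Pcdhgc5 level of 87.0, above the other libraries at 65.7 to 71.1 for Pcdhgc5. In the 12-month Ctrl group at 3 mpi, replicate 4 was low in Pcdhac2 at 21.9 and replicate 3 was high in Pcdhb3 at 14.04. In the 12-month AD group at 3 mpi, replicate 6 was high in Pcdhga4 at 8.09. In the 12-month AD group at 5 mpi, replicate 5 was high in Pcdhb9 at 35.8 and replicate 1 low in Pcdhga12 at 8.26. In the 12-month Ctrl group at 5 mpi, replicate 4 was high in Pcdhb8 at 11.9. In the 3-month cohort, AD replicate 3 at 1 mpi was high in Pcdhb3 at 10.1, AD replicate 3 at 3 mpi in Pcdhb8 at 5.29, Ctrl replicate 2 at 1 mpi in Pcdhga4 at 7.33 and Ctrl replicate 4 at 5 mpi in Pcdhgc3 at 75.7.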

How the results depend on the processing

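The cohort comparison kept its counts of calls under most alternatives. Among AD libraries the count of members called for the 12-month over the 3-month cohort was 27 and lay between 24 and 29 under the other alternatives, except that it was 15 (7 higher, 8 lower) over 3 and 5 mpi only. Among Ctrl libraries it was 23 and lay between 19 and 25, with 12 higher and 7 lower under upper quartile scaling against 12 and 11. Leaving out 1 library gave 24 to 31 and 19 to 24. The replicate block gave 27 and 22. For 5 against 1 mpi among 3-month AD libraries, 4 members were called, against 2 with no filter, 1 with the choroid plexus, pan-neuronal or choroid plexus and Xist covariates, 0 with Gm42418 and Lars2 or with only the compared groups, and 7 by DESeq2. Leaving out 1 library gave 1 to 5. Among 3-month Ctrl libraries 5 were called, and 3 under upper quartile scaling, with no filter, with only the compared groups in the fit and without the 4 libraries of high Inhba. Leaving out 1 library gave 3 to 6. The replicate block gave 3 among AD and 5 among Ctrl libraries, and 0 where the main count was 0. For 5 against 1 mpi in 12-month Ctrl libraries, 1 member was called with the Xist covariate, with it and choroid plexus, and by DESeq2. In 12-month AD libraries leaving out 1 library gave 0 to 1, the 1 being without replicate 1 at 1 mpi. DESeq2 called 1 member for AD against Ctrl at 1 mpi in the 12-month cohort; every other AD against Ctrl count was 0 under each alternative and with each library left out. The causes were not tested. Pcdha4 had 0 to 8 reads per library in the 12-month and 0 to 1 in the 3-month cohort, and what limits its reads was not tested. For Pcdha8 and Pcdhb1, the next lowest in reads, the spread within groups exceeded counting error in both cohorts.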
